A study of Mus musculus with 4 samples.

Results

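The glutathione S-transferase genes described here are 10 members chosen by symbol, of 31053 genes counted in each library: Gsta1, Gsta2, Gsta3 and Gsta4 of the alpha class, Gstm1, Gstm2 and Gstm3 of the mu class, Gstp1 of the pi class, Gstt1 of the theta class and Gstk1 of the kappa class. All 10 were present, and they are described by cell class, by hepatocyte zone and by library. The data are single-cell 3' RNA counts from livers of C57BL/6 mice in 4 libraries, 1 for each of the low-AFP, high-AFP, HCC (hepatocellular carcinoma) and control groups. AFP is alpha-fetoprotein, a liver tumour marker. The title of the low-AFP library names a CD-HFD, that of the control library a control diet and that of HCC no diet. The high-AFP title names a control diet while its deposited data are named for a CD-HFD, so groups are called here by the AFP label. The HCC library came from a suspension of the tumour region, and the other 3 from mixed parenchymal and non-parenchymal cells. Titles give an age of 15 months and the age field 17 months, and no label says how many mice were pooled. No group has a replicate, so differences are given as sizes with no p-value and hold for these libraries alone. Group, animal and library cannot be told apart.

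Glutathione S-transferases join glutathione to reactive, fat-soluble compounds, which makes them soluble enough for export from the cell. Alpha, mu and pi enzymes are abundant in liver cytosol and are known targets of the stress-responsive factor NRF2, encoded by Nfe2l2, and of xenobiotic receptors. The theta enzyme acts on small halogenated molecules, and the kappa enzyme resides in mitochondria and peroxisomes.

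The libraries kept 5359 (low-AFP), 8477 (high-AFP), 8004 (HCC) and 6359 (control) barcodes by the rule. After doublets were removed, 5129, 7902, 7491 and 6036 cells in the same order were analysed, with median depths of 4686 to 7395 UMIs (unique molecular identifiers, each standing for 1 captured RNA molecule). Pairs of libraries shared 3 to 29 barcode sequences. The libraries differed in quality: 42% of low-AFP, 26.5% of high-AFP, 8.19% of HCC and 42.7% of control barcodes exceeded the mitochondrial limit. Levels are in CPM, the summed count of a gene over all cells of a class scaled to their nuclear-encoded UMIs. Each UMI is 1 molecule's 3' end, so levels of different genes need no correction for length. Intervals are exact 95% Poisson intervals for sums and exact binomial intervals for shares of cells, and cover counting error only.

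Hepatocyte-like cells numbered 1825 in low-AFP, 3077 in high-AFP, 675 in HCC and 2344 in control, with median depths of 21141, 15532, 2556 and 14669 UMIs. All 10 hepatocyte markers were detected in each hepatocyte-like cluster except cluster 17, which had 9. The largest cluster of the class was not the same in every library. Cluster 1, led by Mup genes, held 36.9% of these cells in low-AFP and 38.3% in high-AFP. Cluster 17, led by Oat and Glul, held 66.2% of those in HCC, and cluster 2, led by Slc10a1 and Alb, held 65.7% of those in control. In HCC, 30 deep cells of cluster 18 gave 27.9% of all hepatocyte-like UMIs. Median mitochondrial shares in the class were 16.5% in low-AFP, 15.8% in high-AFP, 3.38% in HCC and 22.2% in control. Hepatocyte secretory RNA also differed: the 5 secreted-protein genes Alb, Apoa1, Apoc3, Ttr and Serpina1c summed to 74173.9, 53936, 26592.4 and 104060.2 CPM in these 4 libraries. The part of these differences in the results below was not tested, apart from the restricted comparisons given with them.

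Some members have close copies, and RNA counted for them is uncertain where reads match both. In GENCODE M21 transcripts, 74.8% of the 100-base windows in the last 500 bases of Gsta1 also occur in the gene model Gm3776, and 67.2% of those of Gstp1 also occur in Gstp2. The share was 9.2% for Gsta2, matched to Gsta1, and 2.59% for Gstm1, matched to Gstm3. It was 0 for Gsta3, Gsta4, Gstm2, Gstm3, Gstt1 and Gstk1. In hepatocyte-like cells Gm3776 was at 60.8 CPM in low-AFP, 124 in high-AFP, 183 in HCC and 2.7 in control, which is the library order of Gsta1. Gstp2 stayed between 0.467 and 3.94 CPM.

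Promoter sequences are shown because several members differed together between libraries. RefSeq windows of build GRCm38.p6, from 250 bases before to 50 bases after the start, matched 9 of the 10 members. Gsta4 had none. In the 120 bases before the start, Gsta1 shared an unbroken run of 107 bases with Gm3776 and of 28 bases with Gsta2, which stands in capitals in the first 2 lines. The Gsta3 and Gstp1 lines show matches to TGACNNNGC, the core of the antioxidant response element bound by NRF2, and to TGAGTCA, an AP-1 motif. The Gstp1 match is followed by gc, so it departs from TGACNNNGC only in having G for C after TGA. Which factors bind there was not tested.
Gsta1, chr9:78230549-78230668, plus strand: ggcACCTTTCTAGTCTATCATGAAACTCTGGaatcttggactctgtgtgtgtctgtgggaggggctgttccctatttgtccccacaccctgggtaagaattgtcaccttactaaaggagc
Gsta2, chr9:78347146-78347265, minus strand: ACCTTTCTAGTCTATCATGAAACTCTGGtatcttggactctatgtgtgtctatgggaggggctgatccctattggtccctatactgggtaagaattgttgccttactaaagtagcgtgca
Gsta3, chr1:21240444-21240492, plus strand: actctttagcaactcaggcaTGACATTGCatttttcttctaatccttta
Gstp1, chr19:4037960-4038006, minus strand: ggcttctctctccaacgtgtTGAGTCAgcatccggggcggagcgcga
On both strands, TGACNNNGC was in 12.4% of 32851 promoter windows of 300 bases and, of the 10 windows of the 9 members, in 1 of Gsta3, 121 bases before the start. TGAGTCA was in 5.2% of them and, of the same 10 windows, in 1 of Gstp1, 74 bases before the start. A match is a run of letters, and its absence says only that these letters are not in the window.

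In hepatocyte-like cells the 10 members together made up 0.476% of nuclear-encoded UMIs in low-AFP, 0.719% in high-AFP, 1.62% in HCC and 0.367% in control. Gstm1 gave 41.1%, 49.9%, 42.8% and 33.6% of that sum in the same order, and Gsta3 gave 33.6%, 26.1%, 28.4% and 47.2%. Gsta3 was the most abundant member in control, and Gstm1 in the other 3 libraries. These values leave out the unnamed hepatocyte clusters 5 and 22. In HCC their member sums were 13030.2 and 8093.8 CPM, beside 16172.5 CPM in hepatocyte-like cells. Cluster 22, led by Akr1c18 and Afp, held 349 cells in HCC.

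**Figure D1:**
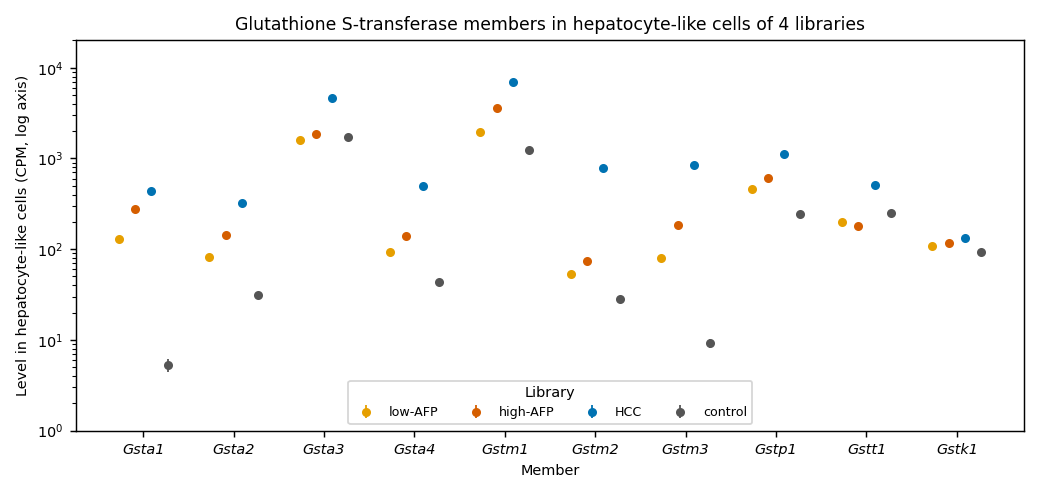
Level of each member in hepatocyte-like cells (CPM, log axis) in the low-AFP, high-AFP, HCC and control libraries, with exact 95% Poisson intervals mostly smaller than the points. In these cells HCC is highest for all 10 members, and Gsta1 spans 432 CPM in HCC to 5.25 CPM in control. With the unnamed hepatocyte clusters added, HCC was not the highest library for Gstk1.

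The alpha class members were all highest in HCC. Gsta1, which conjugates a broad set of electrophiles, was at 131 CPM in low-AFP (interval 127 to 135), 278 in high-AFP (273 to 282), 432 in HCC (412 to 453) and 5.25 in control (4.43 to 6.17). Its log2 folds against control, taken after adding 10 CPM to each value as for all folds here, were 3.21 for low-AFP, 4.24 for high-AFP and 4.86 for HCC. Gsta2, its close relative, was at 82.2, 143, 319 and 30.9 CPM in low-AFP, high-AFP, HCC and control, with log2 folds of 1.17, 1.91 and 3.01 against control. Both genes thus kept the order HCC, high-AFP, low-AFP, control, and no counting intervals of neighbours in that order overlapped. Gsta4, which handles the lipid peroxidation product 4-hydroxynonenal, was at 92.7, 141, 497 and 42.9 CPM, with log2 folds of 0.96, 1.51 and 3.26. Gsta3, a major constitutive alpha enzyme of mouse liver, was at 1599.7, 1876.6, 4598.8 and 1732.9 CPM. It was close to control in low-AFP (log2 fold -0.11) and high-AFP (0.11), and higher in HCC (1.40).

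Members of the mu class were likewise highest in HCC. Gstm1, the main mu enzyme of mouse liver, was at 1955.1 CPM in low-AFP, 3588.2 in high-AFP, 6925.5 in HCC and 1234.1 in control, with log2 folds of 0.66, 1.53 and 2.48 against control. Gstm3, another mu enzyme, was at 80.7, 186, 855 and 9.13 CPM, with log2 folds of 2.25, 3.36 and 5.50. That in HCC was the largest fold of any member. Gstm2 was at 52.6, 73.7, 782 and 28.3 CPM, with log2 folds of 0.71, 1.13 and 4.37. Its level in HCC stood far from the other 3 libraries, whose highest value was 73.7 CPM. The Gstm2 fold in HCC was 3.53 without cluster 17, 3.75 with the unnamed clusters 5 and 22 added, and 2.75 in cluster 9 alone.

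The pi, theta and kappa members followed in that order of range. Gstp1, the pi enzyme, was at 456, 606, 1119 and 247 CPM in low-AFP, high-AFP, HCC and control, with log2 folds of 0.86, 1.26 and 2.14. Gstt1 was at 198, 179, 510 and 249.6 CPM, with log2 folds of -0.32, -0.46 and 1.00, so that it was below control in low-AFP and high-AFP. Gstk1 had the narrowest range, 108, 117, 133 and 92.7 CPM, with log2 folds of 0.19, 0.30 and 0.48.

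By the rule of at least a 2-fold difference, 3 of the 10 members were higher in low-AFP than in control (Gsta1, Gsta2 and Gstm3), where 0.974% of all genes reaching 10 CPM on one side or the other were. None was lower, where 0.473% of genes were. In high-AFP 7 were higher, all but Gsta3, Gstt1 and Gstk1, against 1.42% of genes, and none was lower, against 0.668%. In HCC 9 were higher, all but Gstk1, against a much larger 13.5% of genes, and none was lower, against 7.1%. Gstt1 passed there at 1.00. Between high-AFP and low-AFP, 2 were higher (Gsta1 at 1.03 and Gstm3 at 1.11), against 0.256% of genes, and none was lower, against 0.142%. The median log2 fold of the members was 0.78 for low-AFP, 1.39 for high-AFP and 2.74 for HCC, each against control, and 0.49 in high-AFP against low-AFP. Over all genes measured it was 0.04, 0.05, 0.23 and 0.02. Without clusters 17 and 20 the log2 fold of Gsta1 against control was 2.02 for low-AFP, 3.15 for high-AFP and 3.59 for HCC. In T-like cells Gsta1 was at 35.1 CPM in low-AFP, 91.1 in high-AFP, 6.07 in HCC and 0.618 in control. The part of RNA from outside the cell in the Gsta1 folds was not tested. Without cluster 17, Gsta3 (0.94) and Gstt1 (0.67) no longer passed in HCC. With at most 15% mitochondrial UMIs, Gsta2 (0.82) no longer passed in low-AFP, nor Gstp1 (0.62) in high-AFP. Without cluster 20, Gsta2 (0.76) did not pass in low-AFP, Gstm2 (0.80) did not pass in high-AFP, and Gstm3 (0.81) did not pass between high-AFP and low-AFP. With the unnamed hepatocyte clusters 5 and 22 added, Gsta3 (0.92) and Gstt1 (0.78) did not pass in HCC. Gstt1 in HCC was also at 0.78 once folds were centred on the median of all genes. In HCC, leaving out clusters 17 and 20 gave 1.96 for Gsta2, 2.35 for Gsta4, 1.74 for Gstm1 and 3.45 for Gstm2, and in high-AFP it gave 2.48 for Gstm3. With at most 15% mitochondrial UMIs, Gsta4 was at 2.46 and Gstp1 at 1.28 in HCC. Between high-AFP and low-AFP, Gsta1 lost its call with at most 15% mitochondrial UMIs (0.80), with cells of at least 3000 UMIs (0.97), without cluster 17 (0.98) and in cluster 9 alone (0.90). The comparisons with control share 1 control library and are not independent.

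Other genes of the pathway, from lists chosen with earlier results of these data known, give the setting. Their counts of higher genes are to be read against the shares of all genes above, 0.974% for low-AFP, 1.42% for high-AFP and 13.5% for HCC. Of 11 other glutathione transferases measured, none was 2-fold higher in low-AFP than in control, 1 in high-AFP (Mgst3, at 73.8 against 31 CPM) and 5 in HCC. The HCC examples are Gstm6 at 337 against 62.4 CPM and Gstt2 at 202 against 37 CPM, and 1 was lower there (Gsto1, at 52.3 against 117 CPM). Of 13 genes of glutathione synthesis and recycling, none was 2-fold different in low-AFP or high-AFP, and 2 were higher in HCC, a share near that of all genes there. They were Gss, which completes glutathione, at 136 against 47.3 CPM in control, and Slc3a2, a subunit of the cystine transporter, at 43.6 against 12.6 CPM. Gpx4, which reduces lipid peroxides, was at 947 CPM in low-AFP, 1073 in high-AFP, 1884 in HCC and 507 in control, and it passed the rule in high-AFP and HCC. Prdx6 was the only other of 3 measured peroxidases to pass, at 1653 CPM in HCC against 606 CPM in control.

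Of 18 NRF2 targets outside the glutathione genes, 1 was at least 2-fold higher in low-AFP than in control, 3 in high-AFP and 10 in HCC, and 1 was lower in low-AFP (Me1). Cbr3, a carbonyl reductase, was at 23.1, 93.1 and 184 CPM in low-AFP, high-AFP and HCC against 0.144 CPM, or 4 UMIs, in control. Srxn1, which restores peroxiredoxins, was at 58.2, 98.5, 145 and 24.5 CPM. Of the xenobiotic receptors and their targets, 2 of 8 measured were higher in low-AFP than in control, 1 of 8 in high-AFP and 4 of 9 in HCC, and 1 was lower in high-AFP (Cyp2b9). Cyp2a5, a cytochrome P450 among them, was at 112, 232, 754 and 29.4 CPM in low-AFP, high-AFP, HCC and control. Of the 8 regulators, none passed 2-fold in any comparison. Nfe2l2 RNA was at 85.2, 67.8, 93.4 and 57.8 CPM in low-AFP, high-AFP, HCC and control.

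The members were spread unevenly over hepatocyte-like cells. The members' sum in a cell had a median of 0.348% of UMIs in low-AFP, 0.473% in high-AFP, 2.05% in HCC and 0.331% in control. Cells with at least 1% numbered 175 of 1825 in low-AFP (9.59%, interval 8.28 to 11), 860 of 3077 in high-AFP (27.9%, 26.4 to 29.6), 546 of 675 in HCC (80.9%, 77.7 to 83.8) and 44 of 2344 in control (1.88%, 1.37 to 2.51). The highest single cell reached 8.7%, 11.3%, 10.2% and 1.9% in these libraries. For Gsta1, the 10% of cells with most of its UMIs held 90.5% of them for low-AFP, 80.9% for high-AFP and 85.2% for HCC. For Gsta3 the corresponding shares were 32.3%, 31.6% and 42.3%. After each cell was thinned to 1000 UMIs, Gsta1 was detected in 7.3% of low-AFP, 17.5% of high-AFP, 18% of HCC and 0.4% of control hepatocyte-like cells, leaving out 41, 100, 147 and 29 shallower cells. Without thinning it was detected in 30.03%, 45.2%, 30.1% and 4.99%. T-like cells, which should lack it, had a Gsta1 UMI in 4.87%, 9.24%, 0.645% and 0% after the same thinning, at median depths of 4237.5, 3516, 4256 and 4065.5 UMIs. The 0% of 359 control T-like cells has an upper limit of 1.02%. Gsta1 shares in low-AFP and high-AFP therefore stood less far above T-like cells than that in HCC.

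Cluster 20, a hepatocyte-like cluster led by Cyp2a5, Cbr3, Tekt5 and Srxn1, carried the highest Gsta1, Gstm1, Gstm3 and Gstp1 levels of any hepatocyte cluster in each of the 3 libraries that had it. The clustering used none of the 10 members. It held 61 cells in low-AFP, 315 in high-AFP, 35 in HCC and 0 of 2344 in control. Gstm1 there was at 15055.4, 21621.6 and 19063 CPM in low-AFP, high-AFP and HCC, and Gsta1 was at 3822.8, 3536 and 4329 CPM. In the other hepatocyte-like cells Gsta1 was at 51.9 CPM in low-AFP and 137 CPM in high-AFP, and Gstm1 at 1674.5 and 2811.5 CPM. For comparison, Gsta1 in low-AFP and high-AFP was at 35.1 and 91.1 CPM in T-like cells and 36.5 and 141 CPM in B-like cells. Among the other hepatocyte-like cells, cluster 1 had it at 22.7 and 53 CPM and cluster 9 at 397 and 749 CPM. The part of RNA from outside the cell in these levels was not tested. The same 7 members, Gsta1, Gsta2, Gsta4, Gstm1, Gstm2, Gstm3 and Gstp1, were at least 2-fold higher in cluster 20 than in the other hepatocyte-like cells in low-AFP, against 5.33% of genes, and in high-AFP, against 4.14%. None was 2-fold lower, against 5.2% and 3.77%. Gstt1 had log2 folds of -0.07 (low-AFP) and 0.08 (high-AFP), while those of Gstk1 were -0.54 and -0.78. Across the members the median log2 fold was 2.62 in low-AFP and 2.45 in high-AFP, beside 0.02 and 0.07 over all genes. Cells of this cluster had median depths of 4726, 2686 and 2076 UMIs and median mitochondrial shares of 2.77%, 4.19% and 2.6% in low-AFP, high-AFP and HCC, below the class medians. Hepatocyte-like cells with a Cbr3 UMI, a group that overlaps this cluster, had Gstm1 at 9096.4 CPM in low-AFP against 1399.7 in cells without one, and at 12955.9 against 1907.8 CPM in high-AFP. In control only 4 cells had a Cbr3 UMI.

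Cluster 17 held 447 of the 675 hepatocyte-like cells in HCC and only 13, 76 and 8 cells in low-AFP, high-AFP and control. Its Glul level in HCC was 7502 CPM. In HCC, 4 members were at least 2-fold higher in cluster 17 than in the other hepatocyte-like cells, against 1.87% of genes, and none was lower, against 9.52%. They were Gsta3 at 7074.5 against 3333.2 CPM, Gsta4 at 858 against 313 CPM, Gstm2 at 1475.7 against 428 CPM and Gstm3 at 1569 against 491 CPM. Gsta1 was lower there, at 310 against 495 CPM, short of the 2-fold rule. The median log2 fold of the members was 0.92, beside -0.11 over all genes. Clusters 17 and 20 thus ranked the members differently: Gsta1 was at 4329 CPM in cluster 20 and 310 CPM in cluster 17 of HCC, while Gstm2 was at 689 and 1476 CPM.

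**Figure D2:**
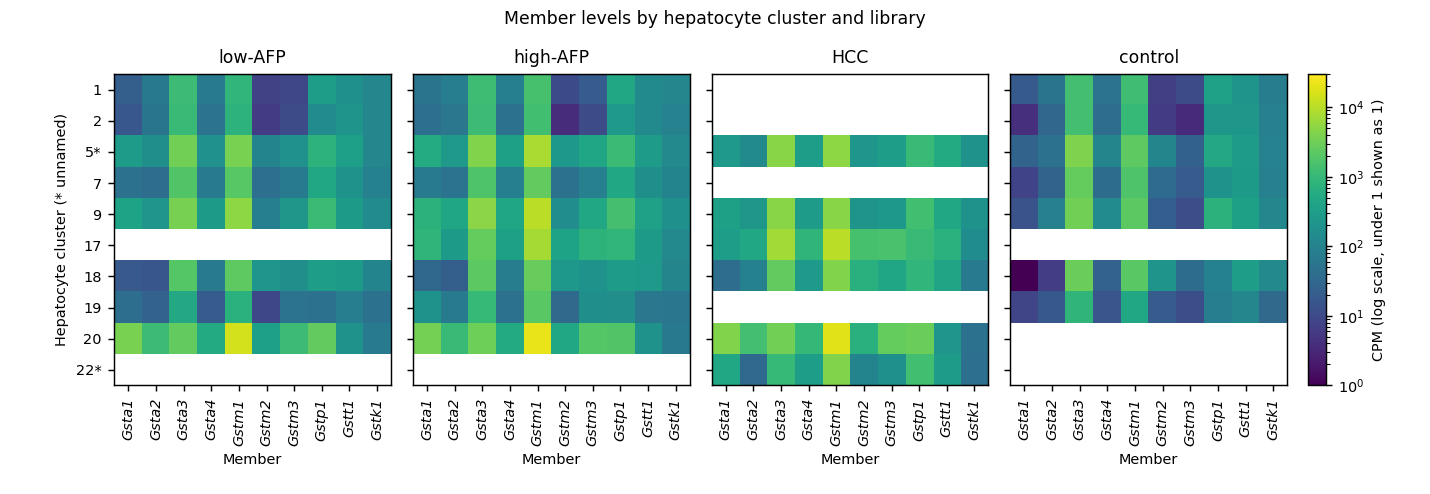
Level of each member (CPM, colour on a log scale) in each hepatocyte cluster with at least 30 cells, in the low-AFP, high-AFP, HCC and control libraries; white rows had fewer cells, and asterisks mark unnamed clusters. Cluster 20 stands out for Gsta1 and Gstm1 in 3 libraries and is empty in control.

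Cluster 9 was the only hepatocyte-like cluster with at least 100 cells in each library (234, 505, 146 and 172) and allowed a comparison with similar depth, 5210, 5469, 5280.5 and 5613 UMIs, and mitochondrial shares of 1.04%, 0.757%, 1.9% and 1.6% in low-AFP, high-AFP, HCC and control. Its cells were not alike in zone and secretory genes. Glul was at 48.3, 208, 741 and 36.4 CPM and Alb at 12845.3, 3953.2, 5193.4 and 39370.1 CPM in the same order. The part of these differences in the folds was not tested. Gsta1 there was at 397, 749 and 348 CPM in low-AFP, high-AFP and HCC against 13.7 CPM in control, and Gstm3 at 230.3, 483 and 247 against 11.3 CPM. Against control, 5 members passed 2-fold there for low-AFP, where 1.36% of genes did, 6 for high-AFP, where 3.02% did, and 5 for HCC, where 9.35% did. None was 2-fold lower, against 0.714%, 4.5% and 4.79% of genes. The members' median log2 fold was 1.05, 1.84 and 1.03, beside 0.13, 0.28 and 0.36 over all genes. In HCC the folds were 1.31 for Gsta2, 1.09 for Gstm1 and 3.59 for Gstm3. Gstp1 had a log2 fold of 0.57, 0.92 and 0.77, Gsta3 of 0.16, 0.60 and 0.53, and Gsta4 of 0.90, 1.55 and 0.96. Gsta3, Gsta4, Gstp1 and Gstt1 therefore did not pass in HCC there. High-AFP was the highest library for most members in this cluster. The exceptions were Gstm2, Gstt1 and Gstk1, highest in HCC at 204, 472 and 196 CPM.

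**Figure D3:**
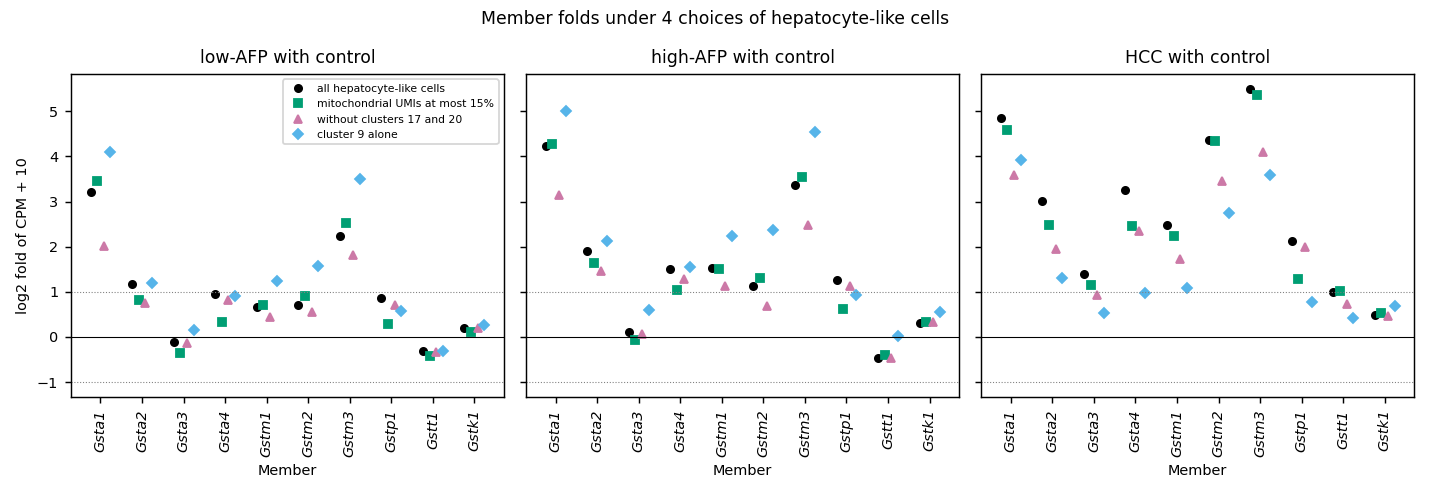
Log2 fold (CPM + 10) of each member against control for low-AFP, high-AFP and HCC, in all hepatocyte-like cells, in those with at most 15% mitochondrial UMIs, without clusters 17 and 20, and in cluster 9 alone; dotted lines mark 2-fold. Gsta1 and Gstm3 lie above 2-fold in every panel and choice, while the HCC folds of Gsta4 and Gstp1 drop below 2-fold in cluster 9.

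Zones were taken within each library by ranking its hepatocyte-like cells and cutting them into 3 equal groups, on a score of 13 pericentral minus 13 periportal genes, none of them a glutathione S-transferase. Pericentral hepatocytes lie by the central vein, where drug metabolism is concentrated, and periportal ones by the portal tract. The zone genes differ between these groups by construction, because the score that ranked the cells is made of them. An alternative score of 6 genes held Oat, a leading gene of cluster 17, and Cyp1a2, a leading gene of cluster 20. Zone ranks and these clusters are therefore not independent under that score. Cyp2e1, among these genes, was at 1841, 2211.4, 2678.9 and 2726.1 CPM in the pericentral group of low-AFP, high-AFP, HCC and control. In the periportal group it was at 16.4, 64.2, 177 and 11.8 CPM in the same order. In HCC the periportal group still held Glul at 246 CPM against 9547.9 in the pericentral group, and limits set on control cells left only 3 HCC cells as periportal. The zone groups of HCC are therefore ranks among its own cells and not the zones of the other libraries.

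Gstm2 and Gstm3 were higher in the pericentral than in the periportal group of every library. Gstm2 was at 121, 189, 1129 and 87.7 CPM in the pericentral group and 4.34, 7.36, 147 and 4.36 CPM in the periportal group of low-AFP, high-AFP, HCC and control. Gstm3 was at 173, 409, 958 and 23.2 CPM against 7.75, 22, 331 and 2.53 CPM. In HCC Gstm3 was highest in the middle group, at 1472 CPM. Cluster 17 made up 84%, 92.9% and 21.8% of the pericentral, middle and periportal groups of HCC. Gstm1 and Gsta3 were at least 2-fold higher in the pericentral group of low-AFP, high-AFP and control, but not of HCC. Gsta3 was near the limit, at log2 folds of 1.03, 1.02 and 1.13 in those 3 libraries, and was at 0.96 in high-AFP once the cells of clusters 17 and 20 were taken out of the zone groups. With at most 15% mitochondrial UMIs it was at 0.86 in low-AFP, and Gstm1 at 0.56 in control. With a score of 6 genes, Gsta3 was at 0.90 and Gstm1 at 0.83 in control. Gstm1 was at 3221.2, 5431.6 and 1822.5 CPM against 815, 1629.1 and 892 CPM in those 3 libraries, and at 6743.5 against 5231.1 CPM in HCC. Gstt1 was higher in the pericentral group by a log2 fold of 0.40 to 0.67, short of the rule in all 4 libraries, and Gstk1 had log2 folds of -0.60 to 0.13.

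Gsta1, Gstp1 and Gsta2 differed in zone between libraries, though some directions for Gstp1 and Gsta2 depended on the setting. Gsta1 was at 264 against 22.5 CPM in low-AFP and 446 against 73.3 CPM in high-AFP, at 189 against 603 CPM in HCC, and at 5.54 against 4.28 CPM in control. The pericentral group of low-AFP and high-AFP held 9.21% and 20.2% of its cells in cluster 20, and the periportal group none. In HCC cluster 20 made up 1.78% of the pericentral and 9.78% of the periportal group. With the cells of clusters 17 and 20 taken out of the same zone groups, the log2 fold of Gsta1 was 1.11 for low-AFP, 0.50 for high-AFP and -2.94 for HCC, where 32 pericentral cells remained. Gstp1 was at 615 against 285 CPM in low-AFP and 637 against 492 CPM in high-AFP, but at 939 against 1373.1 CPM in HCC and 185 against 272 CPM in control. Its log2 fold in control was -0.54, and 0.17 with a score of 6 genes. Gsta2 had log2 folds of 0.28, 0.36, -0.24 and -0.64 in low-AFP, high-AFP, HCC and control, short of the rule. With the cells of clusters 17 and 20 taken out of the same groups, they were -0.88, -0.87, -1.39 and -0.65. In low-AFP the Gsta2 fold was -0.64 between the outer groups of a finer split and 0.98 with at most 15% mitochondrial UMIs. Gsta4 had log2 folds of 0.40, 0.69, 0.67 and -0.08 in all cells of the groups, short of the rule.

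Counted by the rule, 6 members were at least 2-fold higher in the pericentral group of low-AFP (Gsta1, Gsta3, Gstm1, Gstm2, Gstm3 and Gstp1), against 1.55% of genes, and none lower, against 0.834%. In high-AFP 5 were higher, the same without Gstp1, against 1.98%, and none lower, against 0.936%. In HCC 2 were higher (Gstm2 and Gstm3), against 11.4%, and 1 lower (Gsta1), against 2.75%. In control 4 of 9 measured members were higher (Gsta3, Gstm1, Gstm2 and Gstm3), against 1.69%, and none lower, against 0.372%. With the cells of clusters 17 and 20 taken out of the same zone groups, 5 members were higher in low-AFP, where Gstp1 was at 0.80, and 3 in high-AFP, where Gsta1 and Gsta3 no longer passed. With the groups cut anew among the remaining cells, 5 were higher in each of these 2 libraries. Shares of all genes are not given for these choices, so their counts are not read as a result about the members. Gsta1 was under 10 CPM in both zones of control and was not counted. Across the members the median log2 fold was 1.06 in low-AFP, 0.86 in high-AFP, 0.34 in HCC and 0.42 in control, beside 0.09, 0.12, 0.20 and 0.13 over all genes.

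**Figure D4:**
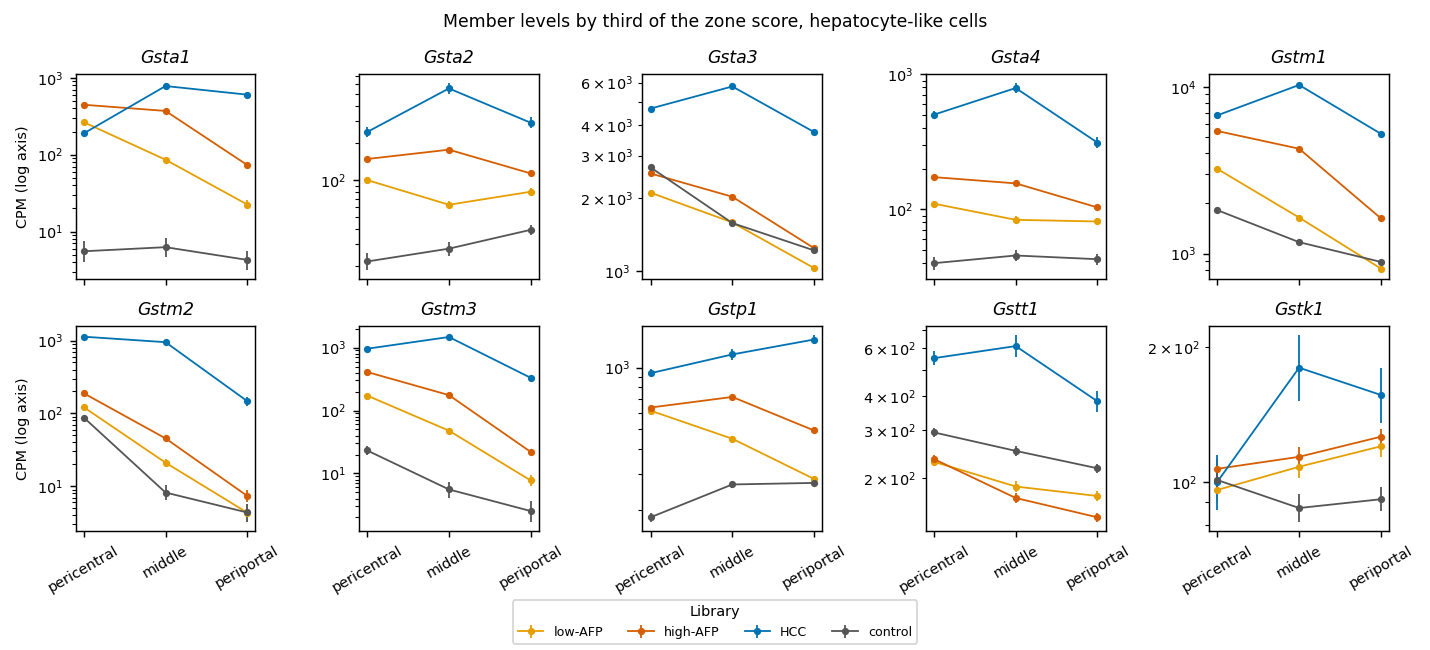
Level of each member (CPM, log axis, own range per panel) in the pericentral, middle and periportal zone groups of hepatocyte-like cells of the low-AFP, high-AFP, HCC and control libraries, with exact 95% Poisson intervals. Gstm2 and Gstm3 decline towards the periportal group in low-AFP, high-AFP and control, and Gsta1 is lowest in the pericentral group in HCC.

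Over the 12 sums of 4 libraries and 3 zone groups, the genes whose log2 levels were most like each member were ranked among 3515 genes with at least 50 CPM in 1 sum. Gsta1 was most like Txn1 (Pearson r 0.99), Ubd (0.98) and Pigyl (0.97). Gstm1 was most like Gstm3 (0.98) and Ugdh (0.98), and Gstm2 was most like Gstm6 (0.98). Gsta3 followed Usp14 (0.99), Adh1 (0.97) and Aldh2 (0.97). The sums share libraries, so these values are descriptions.

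Outside hepatocyte-like cells, members abundant in hepatocytes had lower levels. In T-like cells Gstm1 was at 228 CPM in low-AFP, 794 in high-AFP, 92.2 in HCC and 171 in control, and Gsta1 at 35.1, 91.1, 6.07 and 0.618 CPM. High-AFP was thus highest there, and HCC, the highest library among hepatocyte-like cells, was not. The 5 secreted hepatocyte genes summed to 5006.1, 4939.1, 831 and 8595.1 CPM in those T-like cells. Per 1000 UMIs of these 5 genes, Gsta3 had 29.6, 59.3, 47.8 and 31.5 UMIs in T-like cells and 21.6, 34.8, 173 and 16.7 in hepatocyte-like cells of low-AFP, high-AFP, HCC and control. The ratio thus differed between T-like and hepatocyte-like cells in each library. Outside hepatocyte-like cells of control it ran from 24.2 in mesenchymal-like to 36.4 in cholangiocyte-like cells, with 29.1 in endothelial-like and 31.4 in B-like cells. For Gstm1 in high-AFP it ran from 160 in NK-like to 199 in macrophage-like cells, apart from 89.1 in cholangiocyte-like cells. In hepatocyte-like cells of high-AFP it was 66.5. Whether these UMIs came from free RNA was not tested, and no expression of Gsta1, Gsta2, Gsta3, Gstm1 or Gstm3 in other classes is read from them. Neutrophil-like cells of high-AFP, at a median of 1917 UMIs, had the highest Gstm1 level of any class described outside hepatocyte-like cells. It was 2332 CPM, beside 12247.1 CPM of the 5 genes.

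Gstm2 and Gstk1 had higher levels in endothelial-like than in T-like cells of every library. Gstm2 was at 101 CPM in low-AFP (interval 91.2 to 111), 83.5 in high-AFP (76.3 to 91.2), 106 in HCC (85.4 to 131) and 114 in control (106 to 122) in endothelial-like cells, with 845, 1306, 98 and 1590 cells. In T-like cells it was at 3.1, 9.8, 5.5 and 6.18 CPM. Endothelial Gstm2 was thus above the hepatocyte-like level of the same library in low-AFP, high-AFP and control, and below it in HCC. In cluster 27, led by Rspo3 and Vwf, it was at 171, 79.5, 106 and 125 CPM in the 4 libraries, and in cluster 0, led by Kdr and Clec4g, it was at 90.3, 83.2 and 114 CPM in low-AFP, high-AFP and control. The 5 secreted genes summed to 4141.8, 3421.9, 792 and 7301.8 CPM in endothelial-like cells. Gstk1 in endothelial-like cells was at 42.5, 40.4, 13.3 and 50.3 CPM against 11.9, 13.7, 3.69 and 14.2 CPM in T-like cells. In HCC 72 of the 98 endothelial-like cells were of cluster 27, where Gstk1 was at 12.7 CPM.

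Cholangiocyte-like cells, the lining of bile ducts, had Gstt1 at 206 CPM in low-AFP (interval 175 to 241), 198 in high-AFP (160 to 242) and 166 in control (133 to 205). The intervals held the hepatocyte-like level in low-AFP and high-AFP, but that of control, at 249.6 CPM, lay above. Their Gsta4 was at 50.8, 65.9 and 52.2 CPM, and HCC, with 43 of these cells, was not described. The 5 secreted genes summed to 9718.5, 8117.4 and 12841.2 CPM in them. Mesenchymal-like cells were described in control only, where 111 cells had Gstm2 at 168 CPM, Gstt1 at 113 CPM and Gsta4 at 39.9 CPM. Gstp1 had 23.8 to 264 CPM in every class and library described outside hepatocyte-like cells.

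**Figure D5:**
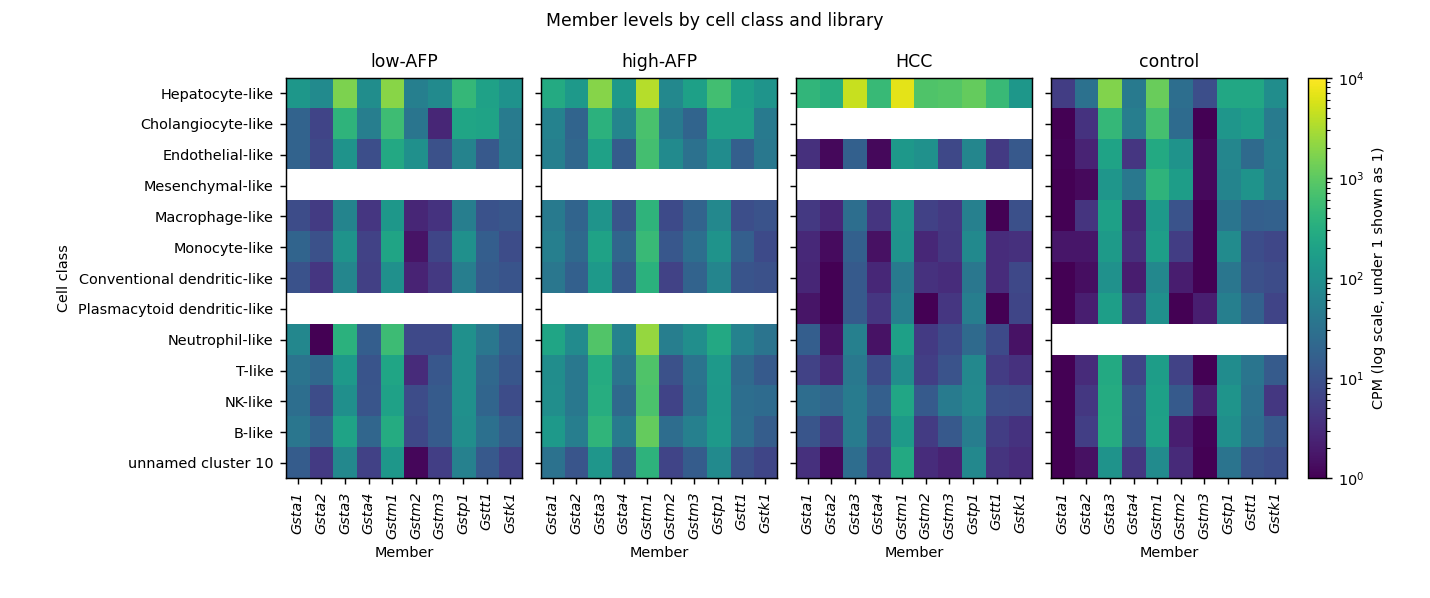
Level of each member (CPM, colour on a log scale) by cell class in the low-AFP, high-AFP, HCC and control libraries; white rows had fewer than 50 cells. Hepatocyte-like cells lead for most members, and Gstm2 is also visible in endothelial-like cells of all 4 libraries.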

How the data were processed

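The authors deposited whole-number UMI counts for each gene in each barcode. Cell Ranger, Seurat 3, R 3.0 and build mm9 are listed in the submitters' processing notes, and the version 3.0.2 of Cell Ranger is given per the file headers. Kept barcodes had 300 or more genes, 500 or more UMIs and no more than 30% mitochondrial UMIs. Scrublet's own threshold marked under 0.5% of barcodes in every library, so those of highest score were removed at 0.8% per 1000 barcodes. Counts scaled to 10000 per cell were clustered in scanpy 1.11.5 without the 10 members and the other listed glutathione transferases (2000 variable genes, 30 principal components, 15 neighbours, Leiden resolution 1 in leidenalg 0.10.2). Clusters were named from marker lists (3 or more detected markers, and the 10 leading genes not against the name); clusters 5, 10, 22 and 36 stayed unnamed. The naming rule was revised after clusters were first seen, and Gm3776 was also left out of clustering after a first look. Folds used CPM + 10, and genes with at least 10 CPM in either group. The fold code was tested on simulated data. The named genes were the 10 members, up to 4 genes per pathway list by size of fold, and the 3 most alike genes per member, of which not all are printed; Gsto1 was named after its values were seen. Cluster levels need 30 cells, class levels 50. Zone limits, weights, depth and mitochondrial limits were varied. Comparisons were made between libraries, zones and clusters, with no test because each group was 1 library. The members and lists were chosen with earlier results of these data known.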

Additional observations from a re-analysis of the deposited data

Results flagged for a closer look

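The zone difference of Gsta1 had opposite directions among libraries. Its log2 fold in the pericentral against the periportal group was 3.08 in low-AFP and 2.45 in high-AFP, but -1.62 in HCC. The difference between libraries was not tested, because each group was 1 library. Cluster 20 lay mostly in the pericentral group of low-AFP and high-AFP and mostly in the periportal group of HCC, and its part in the difference beyond the values given was not tested.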

How the results depend on the processing

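No paired analysis was possible because each group was 1 library. None of the 39 member folds past the 2-fold rule, 21 between libraries and 18 between zones, changed sign under any alternative that was run. The count of 3 members higher in low-AFP than in control became 5 with each cell given equal weight and 5 in cluster 9 alone. Gsta2 lost its call there with at most 15% mitochondrial UMIs (0.82) and without cluster 20 (0.76), and Gsta4 gained one with 1 CPM added (1.09). In high-AFP against control, Gstm2 lost its call without cluster 20 (0.80). Gstp1 lost it with at most 15% mitochondrial UMIs (0.62) and in cluster 9 alone (0.92). The count of 9 in HCC became 5 in cluster 9 alone. Gstt1 lost its call there without doublet removal (0.99) and with cells of at least 3000 UMIs (0.94). Without cluster 17, Gsta3 (0.94) and Gstt1 (0.67) lost theirs. The count of 2 in high-AFP against low-AFP became 4 with equal weight. It became 1 with at most 15% mitochondrial UMIs, 1 with cells of at least 3000 UMIs, 1 without cluster 20, 1 without cluster 17, 1 without both, and 1 in cluster 9 alone. In the zones, the count of 1 lower member in HCC became 2 without clusters 17 and 20, and that of 5 higher members in high-AFP became 3 when the zone groups were not cut anew. The count of 4 higher members in control became 2 with a score of 6 genes, and 1 member was lower there between the outer groups of a finer split. Apart from cluster 9 against control, shares of all genes past 2-fold are not given for these alternatives. Their counts only show which calls depend on the choice and are not read as a result about the members. The cause was not tested. Alternatives that left out or kept clusters by number were chosen after seeing the data. Limits set on control cells gave no value in HCC, where 3 periportal cells remained. Outside hepatocyte-like cells, 125 member levels were at or above 50 CPM, and 117 without the 10% of cells highest in hepatocyte RNA. This count takes in all 10 members, also those from which no expression in other classes is read. No share over all genes is given beside it. Leaving out those cells cannot remove free RNA that is spread over all cells, so no conclusion is drawn from the small change. The source of these UMIs was not tested. The low depth of HCC hepatocyte-like cells limits the shares of cells given for it.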

Other observations

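Cluster 22 had hepatocyte markers but stayed unnamed, was led by Akr1c18 and Afp and held 349 cells in HCC. Gstm1 was there at 4331.5 CPM, Gstp1 at 1339.5 CPM, Gsta1 at 461 CPM, Gsta2 at 33.6 CPM, Gsta3 at 996 CPM, Gsta4 at 309 CPM, Gstm2 at 105 CPM, Gstm3 at 175 CPM, Gstt1 at 301 CPM and Gstk1 at 42.6 CPM. Gsta3 and Gstk1 were thus below the level in hepatocyte-like cells of control, 1732.9 and 92.7 CPM. Among hepatocyte-like cells, however, HCC was the highest library for both. With the unnamed hepatocyte clusters added, HCC was no longer the highest for Gstk1.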
